A study of Mus musculus with 13 samples.

Results

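10 genes that mark the surface and the cell junctions of endothelium were followed through the differentiation of mouse embryonic stem (ES) cells towards blood. They were taken by name, with no threshold on their levels: Cdh5, Pecam1, Cd93, Esam, Cldn5, Emcn, Eng, Cd34, Icam2 and Egfl7, which are 10 of the 45250 genes listed. RNAseq was available for 13 libraries in 5 groups. Flk-1+ haemangioblasts, magnetically sorted from embryoid bodies, came from wild-type (WT), Lmo2-/- and Tal1-/- ES cells with 3 libraries each. Haemogenic endothelium 1 (HE1), sorted as Tie2+, Kit+ and CD41- cells from cultures of Flk-1+ cells, came from WT and Lmo2-/- cells with 2 libraries each. Replicates are numbered from 0. No Tal1-/- HE1 was analysed here. No further allele or agent is named for any group, and all HE1 cells had grown in medium with VEGF and IL-6. As each genotype is described as a single ES cell line, genotype and line cannot be told apart, and the p-values measure the spread between libraries of a line.

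Endothelial cells hold on to each other through VE-cadherin, the product of Cdh5, through PECAM1 and through tight-junction proteins such as CLDN5 and ESAM. Sialomucins including CD34 and endomucin coat the surface that faces the blood, while endoglin acts there as a co-receptor for ligands of the TGF-beta and BMP families. HE1 is a transient endothelial stage from which blood cells bud. LMO2 bridges DNA-binding partners such as TAL1 and GATA2, and ETS factors are known to act on many endothelial promoters.

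Values are FPKM as deposited, a fragment count corrected for transcript length and library size, so that levels can be set beside each other between genes. Differences were estimated with limma on log2(FPKM + 1) over the 13802 genes that were listed at 1 FPKM or more in at least 2 libraries, and the differences below are on this scale, which understates the change of low genes. A gene was called when its adjusted p was below 0.05 and its mean FPKM exceeded 10 in a group compared. 9 of the 10 members could be tested, since Cldn5 reached 1 FPKM in only 1 library. Emcn reached 1 FPKM in the 2 WT HE1 libraries alone, so it entered the fit only through the group in which it was high. Its p-values are printed only in the closing sections and are no independent support. Cd34 and Icam2 reached this level in HE1 libraries alone. Cd93 reached it in the HE1 libraries and in 1 Flk-1+ library, so it too passed the filter only through HE1. This bears on every count over the 9 tested members in the stage comparisons. With no filter on low values Cd34 and Cd93 were called in both stage steps.

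The promoters of the members are of interest because the genotypes remove 2 partners of a DNA-binding complex. The RefSeq promoter table for GRCm38.p6 held 5 of the 10 members (Cd34, Cldn5, Egfl7, Emcn and Eng) with 7 start sites. The 250 bases upstream of the start are shown for 3 members, picked after their values had been seen: Emcn, which was listed at 0 in Lmo2-/- HE1, and Cd34 and Eng, which rose between the stages in both genotypes. None of the 3 was called between the genotypes in HE1. Each window is on the plus strand, with the ETS motif (CAGGAA or CCGGAA, on either strand) in capitals. The windows are chr3:137340828-137341077 for Emcn, chr1:194938571-194938820 for Cd34 and chr2:32646345-32646594 for Eng.
Emcn: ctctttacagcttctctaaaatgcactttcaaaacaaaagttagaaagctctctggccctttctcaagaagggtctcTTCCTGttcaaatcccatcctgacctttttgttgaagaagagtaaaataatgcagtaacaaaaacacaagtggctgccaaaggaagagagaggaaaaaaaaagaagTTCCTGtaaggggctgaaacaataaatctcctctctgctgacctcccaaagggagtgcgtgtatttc
Cd34: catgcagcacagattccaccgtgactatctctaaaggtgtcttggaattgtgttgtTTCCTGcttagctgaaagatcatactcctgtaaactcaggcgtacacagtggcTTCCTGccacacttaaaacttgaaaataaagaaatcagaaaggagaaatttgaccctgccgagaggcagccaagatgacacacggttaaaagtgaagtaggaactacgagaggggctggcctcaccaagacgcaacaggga
Eng: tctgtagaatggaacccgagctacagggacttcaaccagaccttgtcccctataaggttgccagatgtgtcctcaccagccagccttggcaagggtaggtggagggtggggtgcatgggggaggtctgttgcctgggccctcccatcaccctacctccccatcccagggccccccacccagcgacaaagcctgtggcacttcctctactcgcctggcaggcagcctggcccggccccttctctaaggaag
The Emcn and Cd34 windows each held 2 ETS matches and the Eng window held none. Over the members, 3 of 5 (Cd34, Egfl7 and Emcn) and 4 of 7 windows had a match, while 35.1% of 32851 promoter windows of this length did. On either strand, the GATA motif AGATAA was found in 0 of the 7 windows and in 9.99% of all promoters. An E-box of the letters CAGATG or CAGCTG was found in Egfl7 and Eng and in 25.5% of all promoters. The SP1 motif GGGCGG was found in Cldn5 and Egfl7 and in 32.7% of all promoters. These matches describe the letters in the windows, and no binding data were analysed here.

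By the GENCODE M21 annotation of GRCm38, all 10 are protein-coding genes. Cdh5 lies at chr8:104101625-104144511, Pecam1 at chr11:106654217-106750628 and Icam2 at chr11:106377656-106388075. Cd93 lies at chr2:148436640-148443563 and Eng at chr2:32646595-32682669. Esam is found at chr9:37528078-37538319, Cldn5 at chr16:18776847-18778262, Emcn at chr3:137341067-137432185 and Cd34 at chr1:194938819-194961279. Egfl7 (chr2:26580014-26593120) shared its row of the deposited table with Fam69b, Gm20532 and Mir126a, whose reads cannot be told apart from its own. Values given for Egfl7 are those of this merged row. Of the other genes named below, Ramp2, Ctnnb1, Ctnnd1, Pdgfra and Col3a1 also shared rows with further genes. Their values are those of merged rows too.

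The labels were compared with the data. Tek, which encodes the Tie2 used in the HE1 sort, lay between 0 and 2.27 FPKM in the 9 Flk-1+ libraries and between 121 and 176 FPKM in the 4 HE1 libraries. Kit lay between 2.11 and 10.7 FPKM in Flk-1+ cells and between 42.4 and 68.5 FPKM in HE1. Kdr, the gene of Flk-1, was at 68.7 FPKM or more in all 13 libraries. Itga2b, the gene of CD41, was listed at 15.4 and 10.4 FPKM in WT HE1 and at 19.8 and 0 FPKM in Lmo2-/- HE1 although the sort selected CD41- cells. Lmo2 was at 22.8, 30.8 and 21.6 FPKM in WT Flk-1+ cells and at 2.63, 6.48 and 2.17 FPKM in Lmo2-/- Flk-1+ cells, but did not separate the HE1 libraries (4.30 and 20.7 FPKM in WT, 6.42 and 0 FPKM in Lmo2-/-). Tal1 was at 22.0 FPKM or more in WT and at 2.74 to 3.41 FPKM in Tal1-/- Flk-1+ cells. The study's methods state a minimum number of reads that all libraries reached, but the total of each library was not used here. Judged by the steps between low values, the smallest contribution to the FPKM was 0.6 to 1.46 times that of the median library in 12 libraries and 3.71 times in Lmo2-/- HE1 replicate 1. In this library 191 of 4079 genes with a median above 10 FPKM were listed at 0, against 1 to 59 in the others, so that a 0 is less informative there.

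All 9 tested members had a higher mean in WT HE1 than in WT Flk-1+ cells. The Egfl7 row was already at 20.2 to 51.2 FPKM in the Flk-1+ libraries of WT and Lmo2-/- cells, and Emcn, Esam and Icam2 were at 0 to 6.03 FPKM in Lmo2-/- HE1. The summed level of the members was 37.0 to 66.4 FPKM in WT Flk-1+ libraries, most of it from the Egfl7 row, and 1011 and 1101 FPKM in WT HE1. A member above 10 FPKM was rare in Flk-1+ cells, with 0 to 2 per library, while 6 to 8 exceeded it in each HE1 library. In WT HE1 the levels ran from Cdh5 (438 ± 20.6 FPKM, SD, n = 2) through Cd93 (189 ± 4.1), the Egfl7 row (139 ± 50.2), Pecam1 (116 ± 10.5), Eng (80.5 ± 4.11) and Cd34 (54.2 ± 21.7) to Esam (22.1 ± 16.4), Icam2 (9.01 ± 10.4) and Emcn (7.93 ± 0.124). The neighbours Egfl7 and Pecam1 in this order overlapped between libraries, as did Esam and Icam2, and Icam2 and Emcn. In bulk RNA, fewer cells of a type and less RNA per cell cannot be told apart.

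**Figure D1:**
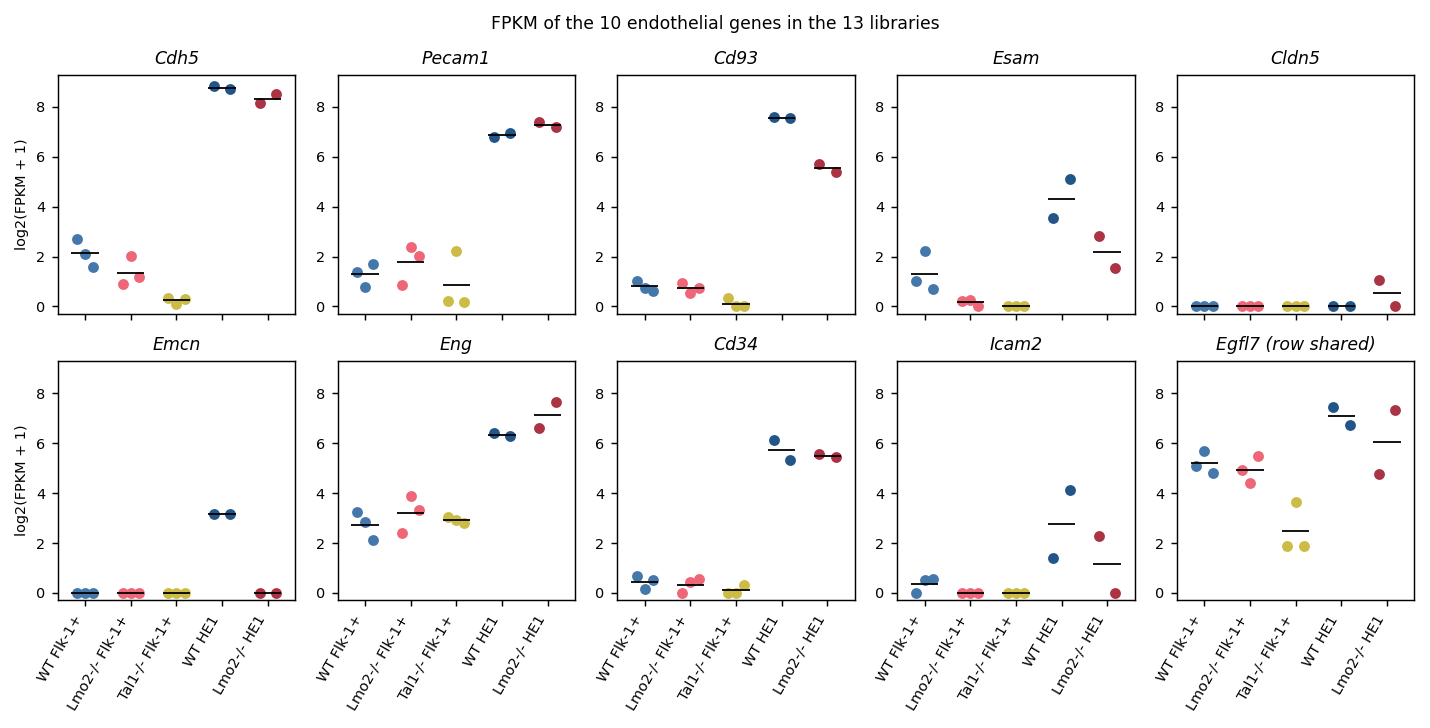
Expression of the 10 members in every library, one panel per gene, as log2(FPKM + 1) on the vertical axis against the 5 groups; each point is a library and each line a group mean. HE1 libraries lie above the Flk-1+ libraries for Cdh5, Pecam1, Cd93, Eng and Cd34, while Emcn is above 0 in the 2 WT HE1 libraries alone, and the Egfl7 row also contains 3 neighbouring genes.

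The comparison of WT HE1 with WT Flk-1+ cells asks which of these genes were higher in the sorted HE1 cells. HE1 was sorted on Tie2 and Kit from a further culture, and Flk-1+ cells on Flk-1 from embryoid bodies. Stage, sorted markers and medium therefore cannot be told apart in either genotype. 6 of the 9 tested members rose, against 6.04% of all genes tested that were called higher. The libraries of the 2 stages did not overlap for any of the 9, against 27.6% of all genes. The median difference of the members was 3.61, and that of all genes tested was 0.11.

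Cdh5, whose product builds the adherens junction, was at 5.48, 3.32 and 1.99 FPKM in WT Flk-1+ cells and at 452 and 423 FPKM in WT HE1. All HE1 values thus lay far above all Flk-1+ values. The ratio of the means was 122 and the difference 6.65 ± 0.44 (SE), with an adjusted p of 4.56e-06.

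Cd93, a C-type lectin-like receptor of endothelial cells, had the largest difference of the members. It was at 1.04, 0.68 and 0.54 FPKM in Flk-1+ cells and at 192 and 186 FPKM in HE1, a 250-fold ratio of means. The difference was 6.77 ± 0.40 (SE) with an adjusted p of 3.55e-06.

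Pecam1, an immunoglobulin-family adhesion molecule of the junction, was at 1.58, 0.734 and 2.28 FPKM and then at 109 and 124 FPKM. Its difference was 5.58 ± 0.63 (SE) with an adjusted p of 0.000154. The sialomucin gene Cd34 was at 0.588, 0.12 and 0.423 FPKM in Flk-1+ cells and at 69.6 and 38.9 FPKM in HE1, a difference of 5.28 ± 0.45 (SE) with an adjusted p of 2.16e-05. Neither gene overlapped between the stages.

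Eng and Esam rose less. Eng, the endoglin gene, was already at 8.39, 6.23 and 3.41 FPKM in Flk-1+ cells and reached 83.4 and 77.6 FPKM in HE1, a 13.4-fold ratio and a difference of 3.61 ± 0.48 (SE) with an adjusted p of 0.000464. Esam, an adhesion molecule of endothelial tight junctions, was at 1.03, 3.61 and 0.614 FPKM and then at 10.5 and 33.7 FPKM. On the log2 scale its HE1 libraries stood apart from each other by more than those of the other called members. The difference of Esam was 3.02 ± 0.59 (SE) with an adjusted p of 0.0062, and it was not called without WT HE1 replicate 1 (adjusted p 0.0915) or with only the groups compared in the fit (adjusted p 0.0669).

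3 tested members were not called in WT. Emcn, the endomucin gene, was listed at 0 in all Flk-1+ libraries and at 7.84 and 8.02 FPKM in WT HE1. Its mean stayed under 10 FPKM, and no ratio is given against a group at 0. Icam2, which encodes an adhesion ligand for leukocyte integrins, was at 0, 0.441 and 0.461 FPKM in Flk-1+ cells and at 1.62 and 16.4 FPKM in HE1, where the 2 libraries stood far apart (adjusted p 0.0522, and 0.0124 without WT HE1 replicate 0, which is called). The Egfl7 row was at 33.1, 51.2 and 27.3 FPKM in WT Flk-1+ cells and at 175 and 104 FPKM in HE1. It was thus the highest member before and among the higher ones after the step, with a difference of 1.88 ± 0.70 (SE) and an adjusted p of 0.117. It was called without Lmo2-/- HE1 replicate 0 (adjusted p 0.0383), without replicate 1 of that group (0.0388) and with library weights (0.0179). Cldn5, the claudin of endothelial tight junctions, was listed at 0 in all 5 WT libraries.

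The same step was then measured without Lmo2. 5 of the 9 tested members rose, against 17.2% of all genes, and 6 did not overlap between the stages, against 31.9% of all genes. The median difference was 3.91 for the members and 0.30 for all genes tested. The order of the differences was Cdh5, Pecam1, Cd34, Cd93 and Eng among those called.

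Cdh5 was at 0.841, 3.07 and 1.24 FPKM in Lmo2-/- Flk-1+ cells and at 281 and 365 FPKM in Lmo2-/- HE1, a difference of 6.97 ± 0.44 (SE) with an adjusted p of 3.27e-06. Pecam1 went from 0.832, 4.27 and 3.06 FPKM to 167 and 144 FPKM. Cd34 went from 0, 0.347 and 0.49 FPKM to 46.3 and 42.4 FPKM. For these 3 junction and surface genes the stages were separated in Lmo2-/- cells by differences close to those in WT cells, namely 6.97 against 6.65 for Cdh5, 5.52 against 5.58 for Pecam1 and 5.17 against 5.28 for Cd34.

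Eng was at 4.34, 13.9 and 9.12 FPKM in Lmo2-/- Flk-1+ cells and at 96.7 and 200 FPKM in Lmo2-/- HE1, a difference of 3.91 ± 0.48 (SE). Cd93 was at 0.924, 0.452 and 0.66 FPKM and then at 50.8 and 41.0 FPKM, a difference of 4.81 ± 0.40 (SE) beside the 6.77 in WT. Cd93 therefore rose in both genotypes but reached a lower level in Lmo2-/- HE1.

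Esam was at 0.164, 0.203 and 0 FPKM in Lmo2-/- Flk-1+ cells and at 6.03 and 1.94 FPKM in HE1. Its adjusted p was 0.0249, but with a mean under 10 FPKM it was not called. Icam2 was listed at 0 in the 3 Lmo2-/- Flk-1+ libraries and at 3.87 and 0 FPKM in HE1. The Egfl7 row was at 29.4, 20.2 and 43.7 FPKM and then at 26.4 and 162 FPKM, with overlap between the stages (adjusted p 0.253). The value of the Egfl7 row rested on 1 library, since the difference was 1.13 with both HE1 libraries, 2.41 (adjusted p 0.0165) without replicate 0 and -0.16 without replicate 1. Emcn was listed at 0 in all 5 Lmo2-/- libraries.

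**Figure D2:**
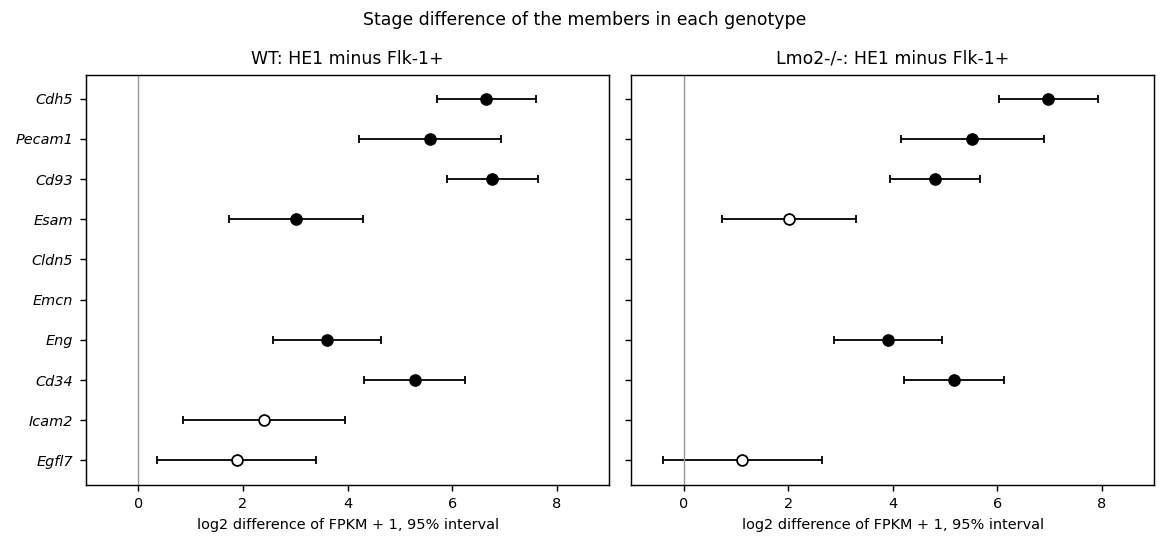
Difference between HE1 and Flk-1+ cells in WT (left) and Lmo2-/- (right), per member, on the log2(FPKM + 1) scale with 95% intervals from limma; filled points were called. Cdh5, Pecam1, Cd93, Eng and Cd34 are filled in both panels and Esam in WT alone; members not tested or listed at 0 in a whole group have no point.

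An interaction term of the 2 factors tested whether the step was of equal size with and without Lmo2. By limma 0 of 9 members were called, against 0.348% of all genes. An unadjusted p under 0.05 was found for 2 members, of which 1 was Emcn, and for 1672 of all 13802 genes. The median interaction of the 9 tested members was -0.75, which is the value of the merged Egfl7 row, and that of all genes was 0.23. It was -0.26 and -0.0809 without WT HE1 replicate 0 and 1, -0.18 and -0.21 without Lmo2-/- HE1 replicate 0 and 1, -0.48 without Lmo2-/- Flk-1+ replicate 2 and -0.12 without the members at 0 in a group. Emcn was above 0 in WT HE1 alone. For Cd93 the step was 1.96 smaller on the log2 scale in Lmo2-/- cells (interaction -1.96 ± 0.57, SE, adjusted p 0.169), and this passed the threshold without Lmo2-/- HE1 replicate 0 (-2.11, adjusted p 0.0409). For Cdh5 (0.32, 95% interval -1.02 to 1.66), Pecam1 (-0.05, -1.98 to 1.87) and Cd34 (-0.12, -1.48 to 1.25) the intervals left room for differences of more than 1 log2 unit in either direction.

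The direct comparison of Lmo2-/- with WT HE1 addresses the surface of the endothelium that formed without LMO2. Cd93 was the only member called lower, 1 of 9, against 0.855% of all genes. 4 members (Cdh5, Cd93, Esam and Emcn) were lower in both Lmo2-/- libraries than in both WT libraries, against 13.8% of all genes. Emcn entered the fit only through WT HE1, so its place among these 4 follows from the filter and is no support. Pecam1 and Eng were higher in both, 2 of 9 against 25.9% of all genes. The median difference of the 9 tested members was -1.02, which is the value of the merged Egfl7 row, and that of all genes was 0.15. It was -0.53 and -0.57 without WT HE1 replicate 0 and 1, and -0.29 and -0.64 without Lmo2-/- HE1 replicate 0 and 1. Without Emcn, the member at 0 in a group, the median of the members was -0.74. An exact permutation test of a single member cannot fall below 0.333 with 2 libraries against 2.

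Cd93 was at 192 and 186 FPKM in WT HE1 and at 50.8 and 41.0 FPKM in Lmo2-/- HE1. The libraries of each genotype lay close together, and the groups did not overlap. The difference was -2.02 ± 0.44 (SE) with an adjusted p of 0.0215. The direction held in all alternatives, between -2.69 and -1.87, but the adjusted p was above 0.05 in 6 of them. It was 0.139 and 0.106 without WT HE1 replicate 0 and 1, 0.0946 without Lmo2-/- HE1 replicate 1, 0.184 with a pseudocount of 0.1, 0.176 with library weights and 0.263 with the HE1 libraries alone.

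Emcn was at 7.84 and 8.02 FPKM in WT HE1 and was listed at 0 in both Lmo2-/- libraries, of which replicate 1 was the one with the coarse steps. Its WT mean stayed under 10 FPKM, and the p-value of the difference is left out for the reason given above. Esam was at 10.5 and 33.7 FPKM in WT and at 6.03 and 1.94 FPKM in Lmo2-/- HE1. The groups did not overlap, but the difference of -2.14 ± 0.65 (SE) did not pass (adjusted p 0.0825), and it did without Lmo2-/- HE1 replicate 0 (adjusted p 0.018).

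Other members did not pass. Cdh5 was at 452 and 423 FPKM in WT and at 281 and 365 FPKM in Lmo2-/- HE1, a difference of -0.45 (95% interval -1.49 to 0.59). Pecam1 was at 109 and 124 FPKM in WT and at 167 and 144 FPKM in Lmo2-/- cells, a difference of 0.42 (-1.07 to 1.91). This difference turned to -0.14 after quantile normalization. Eng, at 83.4 and 77.6 FPKM against 96.7 and 200 FPKM, differed by 0.78 (-0.35 to 1.92), with its highest value in the library of coarse steps.

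Cd34 overlapped between the genotypes, at 69.6 and 38.9 FPKM in WT against 46.3 and 42.4 FPKM in Lmo2-/- HE1 (difference -0.23, 95% interval -1.28 to 0.83). Icam2 (1.62 and 16.4 FPKM against 3.87 and 0 FPKM) and the Egfl7 row (175 and 104 FPKM against 26.4 and 162 FPKM) also overlapped. Cldn5 was listed at 1.07 FPKM in Lmo2-/- HE1 replicate 0 and at 0 in the other 12 libraries.

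**Figure D3:**
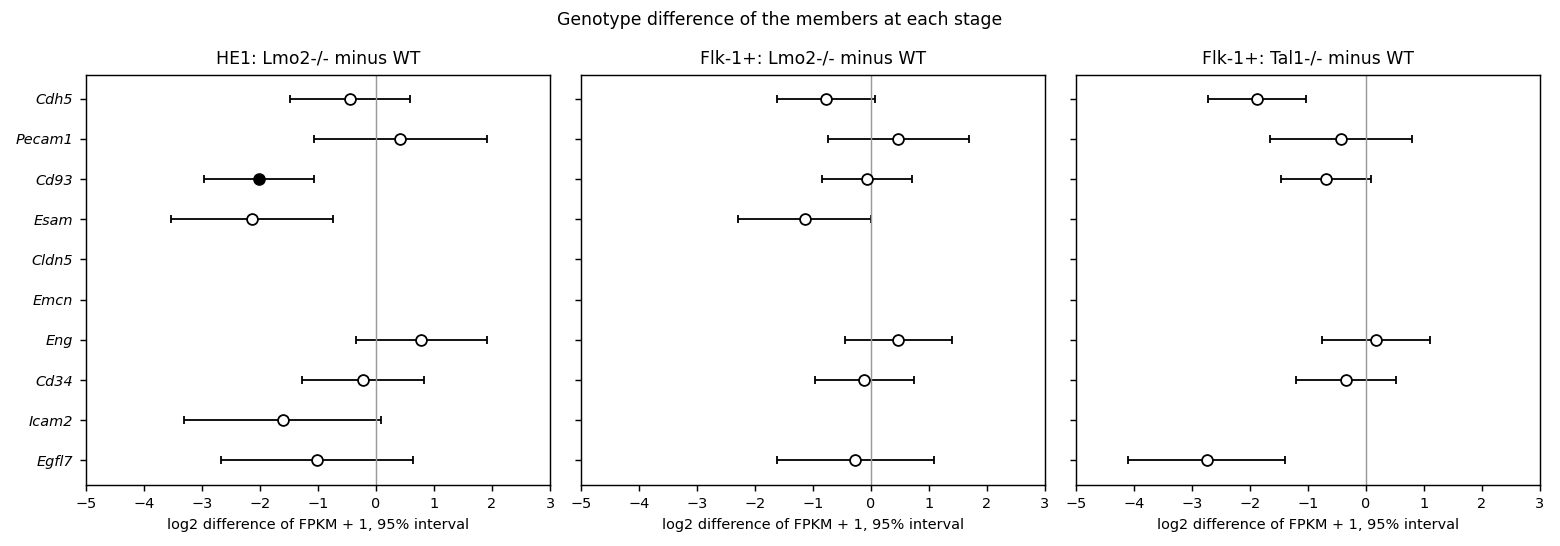
Genotype difference per member on the log2(FPKM + 1) scale with 95% intervals from limma, for Lmo2-/- minus WT in HE1 (left), Lmo2-/- minus WT in Flk-1+ cells (middle) and Tal1-/- minus WT in Flk-1+ cells (right). Cd93 in HE1 (-2.02) is the one filled, called point; members not tested or listed at 0 in a whole group have no point.

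A ratio within a library does not depend on how libraries are scaled. Relative to Pecam1 of the same library, Cd93 was at 1.76 and 1.5 in WT HE1 and at 0.305 and 0.284 in Lmo2-/- HE1. The WT values of Cd93 were thus several times those of Lmo2-/- cells. Cdh5 was at 4.16 and 3.43 times Pecam1 in WT and at 1.69 and 2.52 times in Lmo2-/- HE1, again without overlap. Esam (0.0968 and 0.273 against 0.0362 and 0.0134), Cd34 (0.639 and 0.315 against 0.278 and 0.294) and Emcn (0.0721 and 0.0649 against 0) were also lower relative to Pecam1 in both Lmo2-/- libraries. Eng, Icam2 and Egfl7 overlapped. Cdh5, Cd93, Esam and Emcn were already lower, and Pecam1 higher, in both Lmo2-/- libraries. Their lower ratios to Pecam1 were thus fixed in advance and are no further support. Cd34 itself overlapped between the genotypes. Such ratios show unequal differences between 2 genes and do not show which of the 2 differed. The comparison by ratio was added after the data had been seen.

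**Figure D4:**
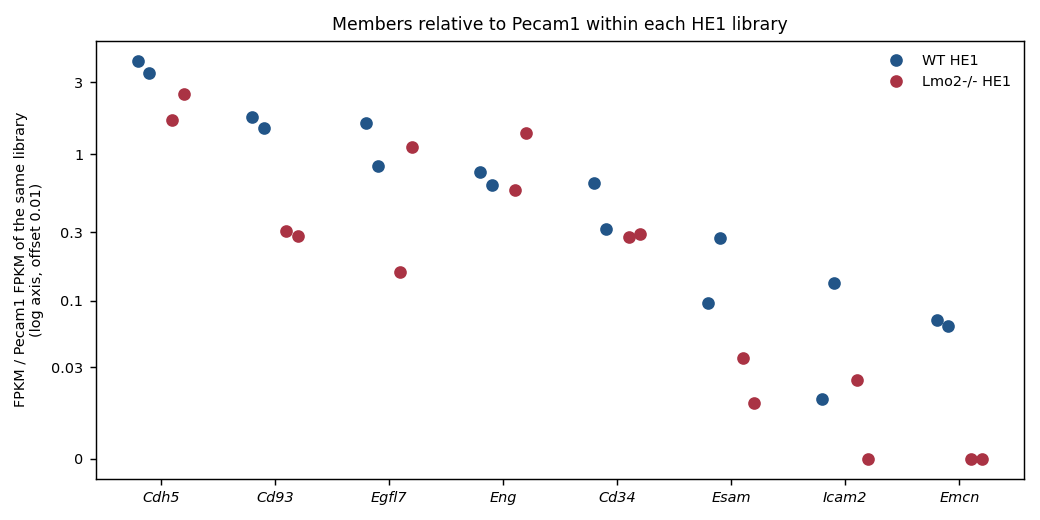
FPKM of 8 members divided by the Pecam1 FPKM of the same HE1 library, on a log axis with an offset of 0.01 so that 0 can be drawn; each point is a library of WT (blue) or Lmo2-/- (red) HE1. Cdh5, Cd93, Cd34, Esam and Emcn lie lower in both Lmo2-/- libraries, while Egfl7, Eng and Icam2 overlap. For Cdh5, Cd93, Esam and Emcn this follows from their own FPKM and that of Pecam1.

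Other genes of endothelium and of other cells were read in the same HE1 comparison. Of 20 further endothelial genes tested, most but not all of them surface genes, 3 fell and 0 rose, against 0.855% of all genes called lower. The median difference of the 20 was -1.19. 14 of the 20 were lower in both Lmo2-/- libraries than in both WT libraries, against 13.8% of all genes. Clec14a, among these 14 and named after its values had been seen, reached 1 FPKM in WT HE1 alone. Its place in this count therefore follows from the filter. Those that fell were Calcrl, the receptor subunit for adrenomedullin (133 and 193 FPKM in WT, 37.9 and 18.4 FPKM in Lmo2-/-, difference -2.56, adjusted p 0.0255), Nos3, the endothelial nitric oxide synthase (-2.12, adjusted p 0.0218), and Eltd1, an adhesion G-protein-coupled receptor (-1.96, adjusted p 0.035), of which Nos3 and Eltd1 were named after their values had been seen. Ramp2, the partner of Calcrl, was at 158 and 116 FPKM in WT and at 65.1 and 11.3 FPKM in Lmo2-/- HE1 (adjusted p 0.0573). Podxl was at 65.3 and 56.3 FPKM in WT and at 79.1 and 219 FPKM in Lmo2-/- HE1 (adjusted p 0.246). Of 12 endothelial transcription factors, 1 fell, and their median was -1.04. This was Sox18, named after its values had been seen (35.9 and 18.3 FPKM in WT, 5.16 and 0 FPKM in Lmo2-/-). With a mean of 4.68 FPKM over all libraries, Sox18 passed the filter only through HE1, where it was highest in WT. The filter therefore bears on this count, and the 0 of Sox18 lay in the library of coarse steps. Sox7, Ets1 and Erg of this list were not called.

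Of 15 junction partners that are not restricted to endothelium, 0 were called by limma, with a median of 0.36. An unadjusted p under 0.05 was found for 4 of them and for 2851 of all 13802 genes. 8 of the 15 were higher in both Lmo2-/- libraries than in both WT libraries, against 25.9% of all genes, and the difference between the lists was not tested. Tjp1, the scaffold protein ZO-1, was at 340 and 313 FPKM in WT and at 444 and 334 FPKM in Lmo2-/- HE1. Ctnnb1, beta-catenin, was at 168 and 162 FPKM in WT and at 233 and 217 FPKM in Lmo2-/- HE1 (difference 0.45, adjusted p 0.469), and Ctnnd1, p120-catenin, had a difference of 0.54 (adjusted p 0.384). Of the 13 genes of the endoglin receptor pathway 0 were called by limma (3 at an unadjusted p under 0.05), with a median of 0.67. Bmpr2, the type II receptor for BMPs, was at 63.3 and 67.8 FPKM in WT and at 126 and 87.1 FPKM in Lmo2-/- HE1 (adjusted p 0.333), and neither Bmpr1a (0.145) nor Smad4 (0.443) passed.

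Among the lists of other cells, the fibroblast and epithelial lists held genes called between the genotypes in HE1. Of 5 fibroblast genes tested, 3 rose, against 2.15% of all genes called higher, and the list summed to 17.8 and 18.7 FPKM in WT and to 113 and 478 FPKM in Lmo2-/- HE1. They were Pdgfra (2.98 and 1.01 FPKM against 37.3 and 94.5 FPKM), Col1a1 (6.64 and 5.23 FPKM against 29.6 and 259 FPKM) and Col3a1, the last named after its values had been seen. The rows of Pdgfra and Col3a1 were shared with other genes. Dcn was not among the genes tested, and Col1a2 did not pass (adjusted p 0.0899). Of 5 epithelial genes, Krt8 and Krt18 rose while Cdh1 was at 0.8 FPKM or less, and 2 of the 5 were listed at 0 in each HE1 group. The epithelial list summed to 10.7 and 18.5 FPKM in WT and to 49.5 and 165 FPKM in Lmo2-/- HE1. The smooth muscle list summed to 376 and 328 FPKM in WT and to 541 and 1181 FPKM in Lmo2-/- HE1. Acta2 was at 165 and 114 FPKM against 263 and 816 FPKM (adjusted p 0.095). By limma 0 of 5 smooth muscle genes were called, and 1 had an unadjusted p under 0.05, where 2851 genes of 13802 did. Cardiac (9.72 to 11.8 FPKM in WT, 2.24 to 15.4 FPKM in Lmo2-/-) and haematopoietic genes (12.1 to 15.4 FPKM in WT, 0 to 19.8 FPKM in Lmo2-/-) gave the ranges shown for their sums, and pluripotency genes were listed at 0 in all 4 libraries. The part of such cells in the values of Cd93, Emcn and Esam was not tested.

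**Figure D5:**
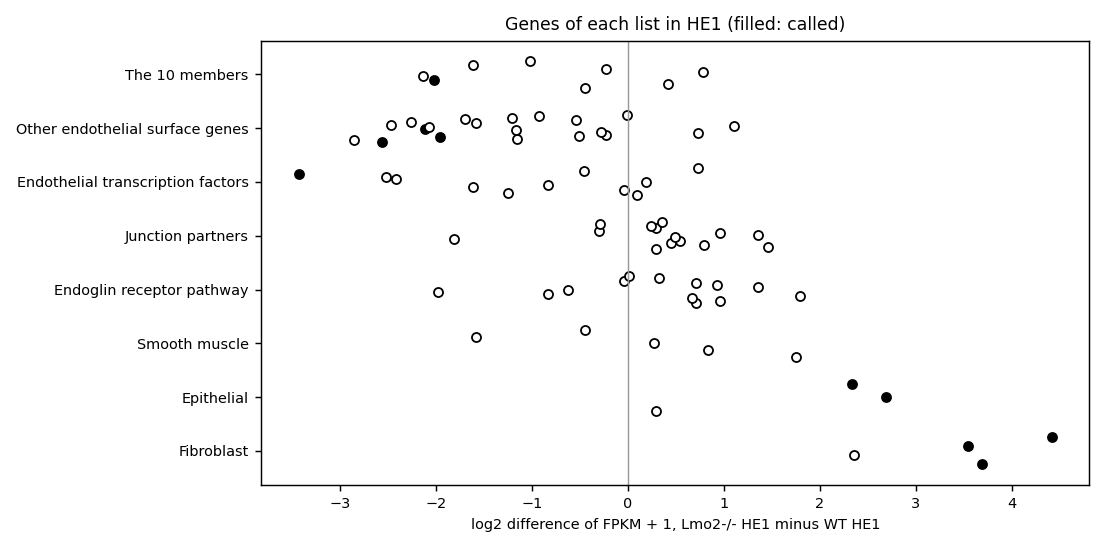
Difference between Lmo2-/- and WT HE1 on the log2(FPKM + 1) scale for each tested gene of 8 lists, one row per list and one point per gene, with called genes filled; genes listed at 0 in both libraries of a genotype are not drawn. Most members and most of the further endothelial genes lie left of 0, with called genes Cd93, Calcrl, Nos3 and Eltd1. The called fibroblast and epithelial genes lie right of it.

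The lists were also read for the stage step. Of all genes tested, 6.04% were called higher and 0.942% lower in the WT step, and 17.2% higher and 2.38% lower in the Lmo2-/- step. In WT, 15 of the 20 further endothelial genes and 8 of 12 endothelial transcription factors rose. In Lmo2-/- cells 10 of 20 and 7 of 12 did. Some genes of these lists, such as Mmrn2 and Nos3, were under 1 FPKM in every Flk-1+ library. They entered the fit only through HE1, so the filter bears on these counts as well. Of the junction partners, 7 of 15 rose and 1, Cdh2, fell in WT, and 8 of 15 rose in Lmo2-/- cells, among them Tjp1 (2.73 in WT, 3.11 in Lmo2-/-) and Ctnnb1 (1.10 in WT, 1.54 in Lmo2-/-). Of the 13 endoglin pathway genes, 3 rose in WT and 5 in Lmo2-/- cells, where 2, Id3 and Smad1, fell. The receptor genes Acvrl1, Bmpr2 and Tgfbr2 were those that rose in WT, and Acvrl1, Tgfbr2, Cdh2, Id3 and Smad1 were named after their values had been seen. Of 5 smooth muscle genes tested, 2 rose in WT, Acta2 (0.239 to 0.926 FPKM in Flk-1+ cells, 165 and 114 FPKM in HE1) and Tagln (2.98 to 7.52 FPKM, then 50.5 and 53.7 FPKM), and 3 rose in Lmo2-/- cells. The list summed to 52.9 to 90.6 FPKM in WT Flk-1+ cells and to 328 and 376 FPKM in WT HE1, and its part in the member values was not tested.

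In haemangioblasts the loss of Lmo2 was compared with WT at a stage where most members were scarcely expressed. By limma 0 of 9 members were called, against 0.0% of all genes, and 0 had an unadjusted p under 0.05, while 307 genes of 13802 did. Esam was the only member whose libraries did not overlap, 1 of 9 against 4.22% of all genes. The median difference was -0.11 for the 9 tested members and -0.01 for all genes. It was -0.000885 without WT Flk-1+ replicate 0, -0.00466 and -0.23 without Lmo2-/- Flk-1+ replicate 1 and 2, and -0.19 without either WT HE1 library. Esam was at 1.03, 3.61 and 0.614 FPKM in WT and at 0.164, 0.203 and 0 FPKM in Lmo2-/- Flk-1+ cells. The difference was -1.15 ± 0.53 (SE), with an exact permutation p of 0.1, the smallest that 3 libraries against 3 can give, and an adjusted p of 1. Cdh5 (5.48, 3.32 and 1.99 FPKM against 0.841, 3.07 and 1.24 FPKM) overlapped, with a difference of -0.77 (95% interval -1.62 to 0.08). Eng and Pecam1 had higher means in Lmo2-/- cells, with intervals of -0.45 to 1.40 and -0.75 to 1.69. The Egfl7 row differed by -0.27 (-1.62 to 1.08).

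The loss of Tal1 was compared with the same WT libraries, which the 2 comparisons therefore share. Lmo2 was also lower in Tal1-/- Flk-1+ cells, at 0, 7.58 and 1.29 FPKM without overlap with WT (adjusted p 0.401). Kdr, the gene of the sorted Flk-1, was at 68.7 to 86.0 FPKM in Tal1-/- cells and at 100.2 to 252 FPKM in WT (adjusted p 0.731), so that the groups also stood apart in these genes, and their part in the member values was not tested. By limma 0 of 9 members were called, against 0.0% of all genes called lower, but 3 of 9 had an unadjusted p under 0.05, where 843 genes of 13802 did. 4 members, Cdh5, Cd93, Esam and the Egfl7 row, were lower in all 3 Tal1-/- libraries than in all 3 WT libraries, against 7.4% of all genes. The median difference was -0.43 for the 9 tested members, and -0.67 without WT Flk-1+ replicate 1, and it was -0.01 for all genes.

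The Egfl7 row was at 33.1, 51.2 and 27.3 FPKM in WT and at 2.67, 11.5 and 2.67 FPKM in Tal1-/- Flk-1+ cells. The groups were far apart, with a difference of -2.74 ± 0.63 (SE). The adjusted p over all genes was 0.267 and the exact permutation p was 0.1. With library weights the row was called (adjusted p 0.0415), and over the alternatives the adjusted p ran up to 0.755.

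Cdh5 was at 0.279, 0.062 and 0.243 FPKM in Tal1-/- cells, with a difference of -1.88 ± 0.39 (SE) from WT and an adjusted p of 0.173. The level of Cdh5 in Tal1-/- cells lay below that of every WT and Lmo2-/- Flk-1+ library. Cd93 was at 0.263, 0 and 0 FPKM (difference -0.69, 95% interval -1.46 to 0.09). Esam was listed at 0 in all 3 Tal1-/- libraries (adjusted p 0.757), and Tek was also at 0 in all 3.

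Eng did not follow these genes, at 7.16, 6.48 and 6 FPKM in Tal1-/- cells against 8.39, 6.23 and 3.41 FPKM in WT, a difference of 0.17 (95% interval -0.75 to 1.10). Pecam1 was at 0.15, 3.66 and 0.132 FPKM in Tal1-/- cells, with replicate 1 above all WT libraries. Cd34 was at 0, 0 and 0.242 FPKM and Icam2 at 0 in all 3. In Tal1-/- Flk-1+ cells Eng was the highest member in 2 of 3 libraries, in place of the Egfl7 row that led in all WT and Lmo2-/- Flk-1+ libraries. The list of endothelial transcription factors summed to 81.9 to 153 FPKM in WT and to 24.9 to 39.4 FPKM in Tal1-/- Flk-1+ cells, with 0 of 12 called by limma and 5 at an unadjusted p under 0.05.

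Between Tal1-/- and Lmo2-/- Flk-1+ cells, 3 of 9 members (Cdh5, Cd93 and the Egfl7 row) were lower in all Tal1-/- libraries, against 6.66% of all genes. By limma 0 of 9 members were called, against 0.00725% of all genes called lower, and 2 members had an unadjusted p under 0.05, where 822 genes did. The median difference was -0.30 for the 9 tested members and -0.00 for all genes. It was -0.52 and -0.18 without Lmo2-/- Flk-1+ replicate 0 and 1, and -0.46 without either WT HE1 library. The Egfl7 row differed by -2.47 ± 0.63 (SE, adjusted p 0.448), from 29.4, 20.2 and 43.7 FPKM in Lmo2-/- to 2.67, 11.5 and 2.67 FPKM in Tal1-/- cells. Cdh5 differed by -1.10 (95% interval -1.95 to -0.26, adjusted p 0.723), and Eng by -0.30 (-1.23 to 0.62).

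The genes whose pattern was most like that of the members were sought by the correlation of each gene with the mean standardised level of the 9 tested members over the 13 libraries. The highest were Mmrn2 (r = 0.989), Pcdh17 (0.988), Arhgef28 (0.986), Ptprb (0.986) and Csgalnact1 (0.984). Ptprb, a receptor phosphatase of endothelium, was at 106 and 98.2 FPKM in WT HE1, at 37.3 and 29.6 FPKM in Lmo2-/- HE1 and at 3.22 FPKM or less in Flk-1+ cells. Mmrn2, an extracellular ligand of CD93, was at 27.7 and 35.2 FPKM in WT HE1 and at 14.6 and 12.2 FPKM in Lmo2-/- HE1. In total 67 of 13793 genes reached an r of 0.95. The points share the separation of the 2 stages, so that these values describe a likeness across few independent groups.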

How the data were processed

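RNAseq of mouse ES cell-derived Flk-1+ and HE1 cells was analysed (13 libraries, 5 groups). Per the study's methods and processing notes, reads were mapped to GRCm38/mm10 with TopHat2 2.0.9, transcripts were assembled with Cufflinks 2.0.0 with quartile normalisation, and conditions were compared with Cuffdiff 2.0.1. The authors deposited FPKM per library (Cuffnorm) and pooled FPKM per condition; their fold changes and p-values were not used. The methods give the replicates as independent libraries of biological replicates, and a minimum read number for all of them. Fragment counts per library were not used here, so no interval from counting was computed and no count test was run.

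Genes were tested if the locus exceeded 200 bp and FPKM was at least 1 in at least 2 of 13 libraries. limma 3.58.1 (R 4.3.3) was fitted to log2(FPKM + 1) with a mean-variance trend over all groups, two-sided, and p-values were adjusted by Benjamini-Hochberg over 13802 genes. A gene was called where the adjusted p was under 0.05 and the mean of a compared group exceeded 10 FPKM, a limit taken from the study. Exact permutation tests were two-sided. Medians are over the 9 tested members.

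The 10 members are named in every library. Of the other lists, genes are named from the 3 with the highest mean FPKM, but not all of these 3 are named in every list. Cald1 of the smooth muscle list is left out. The cardiac, haematopoietic and pluripotency lists are given as sums, with Itga2b named as a sorting gene. The sorted and targeted genes and the 5 genes most like the members are also named. Others are said to be named after their values were seen. Members and lists were chosen with earlier results of these data known. Older gene symbols were matched through RefSeq synonyms. Alternatives were the pseudocount, the filters, normalization, library weights, the groups in the fit, the replicate block and leaving out each library. ChIPseq and DNase I data were not analysed here. Tables and figures were made with matplotlib 3.10.9, scipy 1.17.1 and pandas 2.3.3 under Python 3.11.15.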

Additional observations from a re-analysis of the deposited data

Results flagged for a closer look

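One member met a rule for differences between groups under the same contrast. The Lmo2-/- against WT difference of Emcn, which encodes endomucin, differed between HE1 and Flk-1+ cells by a limma interaction term (adjusted p 0.0105 over 13802 genes). Emcn was listed at 0 FPKM in all 9 Flk-1+ libraries and in both Lmo2-/- HE1 libraries, and at 7.84 and 8.02 FPKM in WT HE1. The adjusted p was between 0.000559 and 0.0539 over 20 settings, and was not below 0.05 with library weights. As the mean stayed under 10 FPKM, Emcn was not called. Emcn entered the fit only because the 2 WT HE1 libraries reached 1 FPKM, and it was at 0 in the other 11, so this p-value follows from the filter and the zeros and is not independent support for a difference.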

How the results depend on the processing

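The calls of Cdh5, Pecam1, Cd93, Eng and Cd34 in both stage steps were made under all 23 alternatives, with log2 differences between 2.95 and 7.83 on the scale of each alternative. The count of members called lower in Lmo2-/- HE1 (1) was 0 with a pseudocount of 0.1, with library weights and with the groups compared alone, and 2 with the adjusted p alone, the second being Emcn. With library weights 1 member was called lower in Tal1-/- against WT Flk-1+ cells, and with the adjusted p alone 1 member, again Emcn, passed in the interaction. Emcn entered the fit only through WT HE1, so neither is support. The median difference of the members moved as follows, in the order WT step, Lmo2-/- step, HE1. It was 6.28, 4.14 and -1.04 with a pseudocount of 0.1, 4.44, 4.36 and -0.74 with a filter at 10 FPKM in 1 library, 3.25, 2.95 and -1.33 after quantile normalization, and 3.32, 3.41 and -1.25 with a common median. It was 3.87 in the WT step with library weights, 3.41 in the Lmo2-/- step with the authors' pooled FPKM, and 4.44, 4.81 and -0.74 without members at 0 in a group, an alternative added after seeing the data. For Tal1-/- against WT Flk-1+ cells it was -1.64 with a pseudocount of 0.1, -0.24 after quantile normalization and -0.61 with library weights. For Tal1-/- against Lmo2-/- cells it was -0.9999 with a pseudocount of 0.1, -0.46 with the filter at 10 FPKM and -0.76 without members at 0. For the interaction it was -0.23 with a pseudocount of 0.1, -0.43 with the filter, -0.95 with a common median, -1.05 with library weights and -0.12 without members at 0. Differences of members that were not called turned sign in some settings. Pecam1 in HE1 was -0.14 after quantile normalization, and in Lmo2-/- against WT Flk-1+ cells Cd93 was 0.0589 and Egfl7 0.0313 with library weights. In the interaction Esam was 0.43 and Cd34 0.30 with a pseudocount of 0.1, Cdh5 -0.25 and Eng -0.30 after quantile normalization, and Pecam1 0.16 with library weights. The cause was not tested. Quantile normalization brought the median of all genes from 0.30 to 0.02 in the Lmo2-/- step, and the calls from 2379 higher and 328 lower to 685 and 563. In the WT step the calls went from 834 and 130 to 464 and 260, and in HE1 from 297 and 118 to 123 and 89.

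Leaving out each library in turn gave medians of 3.31 to 4.57 in the WT step, 3.39 to 4.43 in the Lmo2-/- step, -1.02 to -0.29 in HE1, -0.67 to -0.31 for Tal1-/- against WT, -0.52 to -0.18 for Tal1-/- against Lmo2-/- and -1.001 to -0.0809 for the interaction. The members called lower in HE1 were 0 to 2, with 0 without either WT HE1 library or Lmo2-/- HE1 replicate 1 and 2 (Cd93 and Esam) without Lmo2-/- HE1 replicate 0, and those called in the interaction were 0 to 1. Differences that crossed 0 were those of Egfl7 in the Lmo2-/- step (-0.16 to 2.41) and in HE1 (-2.31 to 0.27), and of Cd34 in HE1 (-0.64 to 0.19). In Lmo2-/- against WT Flk-1+ cells these were Cd93 (-0.165 to 0.0524) and Cd34 (-0.253 to 0.0564), and for Eng the Tal1-/- differences (-0.13 to 0.42 against WT, -0.703 to 0.0354 against Lmo2-/-). In the interaction Pecam1 (-0.50 to 0.26), Eng (-0.21 to 0.83), Cd34 (-0.53 to 0.30) and Egfl7 (-2.04 to 0.54) did so. Where a lone library was left in a group, it was assumed to vary like the others.

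With the replicate number as a block the counts of members called were 6, 5 and 1 in the WT step, the Lmo2-/- step and HE1 and 0 elsewhere, with a median of -1.02 in HE1. The block moved the calls over all genes from 834 to 597 higher in the WT step. The numbers did not pair the samples, as the correlations of same-numbered deviations ran from -0.184 to 0.169 and were not all above 0.1. The coarse steps between low values in Lmo2-/- HE1 replicate 1 limit what its zeros show.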
